A study of Arabidopsis thaliana with 2 samples.

Results

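Peaks lying far from protein-coding genes were examined for a pair of SEP3-AG protein complexes, SEP3Δtet3M-AG and SEP3Δtet-AGΔtet. A peak is a stretch of DNA that a complex recovered, and a region was chosen by the position of its peaks. The midpoint had to lie outside every protein-coding gene of the TAIR10.1 RefSeq table and more than 1000 bp from the start and end of each. Peaks of the 2 lists with at least 1 bp in common were joined into 1 region. This gave 526 regions of the 2811 that all peaks form when joined the same way. They came from 296 of the 1681 SEP3Δtet3M-AG peaks and 416 of the 2277 SEP3Δtet-AGΔtet peaks.

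The assay was seq-DAP-seq, a form of DNA affinity purification in which a purified protein complex selects fragments from naked genomic DNA and the selected fragments are read by sequencing. The DNA of both samples came from untreated Arabidopsis thaliana seedlings, 2 weeks old. The series describes both as tetramerization mutants. By their names both carry an altered SEP3, and the second also carries an altered AG. The genotype label gives both samples the first complex's name, so the sample titles, which match the complexes named in the series' design text, set the groups. Each complex had 1 peak list, every peak was 400 bp wide, and the read depth behind the lists is unknown. The unaltered complex was not analysed here, and no replicate error can be given. Intervals are exact 95% intervals, except those of differences between shares, which are Newcombe 95% intervals. All cover counting error only, and every test below describes the peaks of these lists, not a difference between the complexes.

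SEPALLATA3 (SEP3) and AGAMOUS (AG) are MADS-domain transcription factors that together specify stamens, carpels and the end of the floral meristem. Such proteins bind DNA as dimers at CArG boxes, short elements with an A/T-rich centre, and a tetramer can hold a pair of these elements with the DNA between them looped. In plants, regulatory elements can lie well outside the promoter, and a distal element may act on a gene that is not its nearest neighbour. The gene-poor sequence around Arabidopsis centromeres is also rich in transposable elements and pseudogenes, so a peak far from coding genes can lie in either kind of sequence.

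Of the 526 regions, 183 held a peak of each list (34.8%, interval 30.7 to 39.0). Another 110 had a peak of SEP3Δtet3M-AG only (20.9%), and 233 a peak of SEP3Δtet-AGΔtet only (44.3%, interval 40.0 to 48.7). A region was counted as held by 1 list even when a peak of the other list overlapped it from within 1000 bp of a gene, which was so for 2 of the 110 and 1 of the 233. Positions alone chose the regions, and the values beside the limit were close together. The nearest peaks outside it lay 1001 bp from CYP76G1, 1003 bp from ABCC1 and 1003 bp from AT2G36090. The nearest peaks within it lay 999 bp from AT1G19260, 999 bp from AT3G43837 and 997 bp from ABCC1. At ABCC1 the overlapping peaks of the lists thus fell on either side of the limit.

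Most regions were only moderately far from a coding gene. The median distance was 2014.5 bp, with quartiles of 1382 and 3656 bp. In all, 433 regions lay within 5000 bp, 93 lay farther and 47 lay over 10000 bp away. The medians were 1921 bp for regions of both complexes, 2915 bp for SEP3Δtet3M-AG alone and 1822 bp for SEP3Δtet-AGΔtet alone. In the plot of distances, the SEP3Δtet3M-AG curve lies to the right of the others at each quartile. The order depended on gene density. In windows of 500 kb with few coding genes, defined below, the medians were 6929 bp for both complexes, 4808 bp for SEP3Δtet3M-AG alone and 9059 bp for SEP3Δtet-AGΔtet alone. In the other windows they were 1733, 1997 and 1646 bp. These distances are descriptions of what the rule selected on, with no test.

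**Figure D1:**
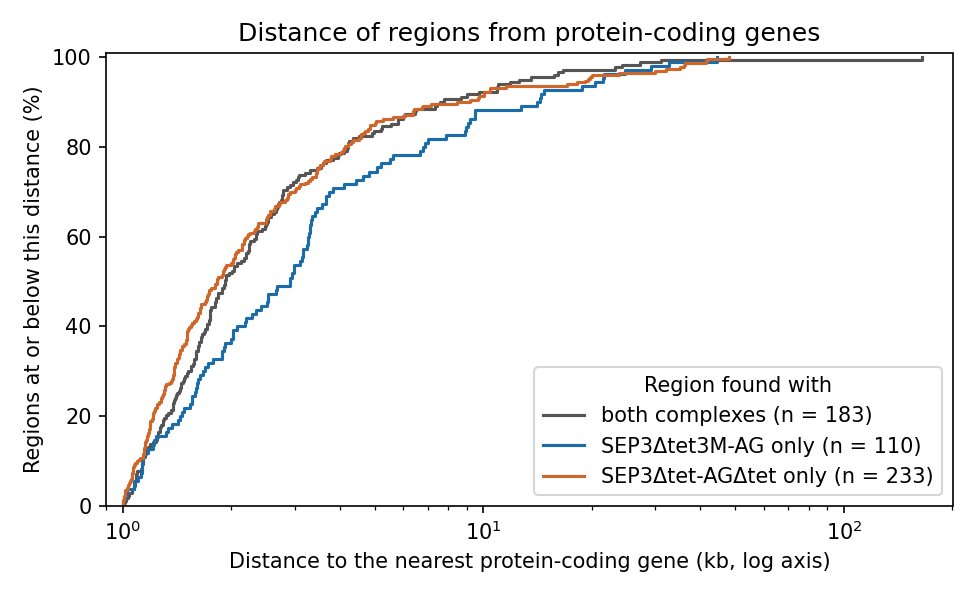
Cumulative share of regions (%) against the distance from the nearest protein-coding gene (kb, log axis), with 1 line for regions of both complexes (n = 183), SEP3Δtet3M-AG only (n = 110) and SEP3Δtet-AGΔtet only (n = 233). The median is 2915 bp for SEP3Δtet3M-AG only, against 1921 and 1822 bp for the others.

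Peaks were sparsest in both lists over 10000 bp from genes. Sequence over 1000 bp from a coding gene made up 30.4 Mb, or 25.5% of the 5 chromosomes. At 1000 to 1500 bp from a gene, SEP3Δtet3M-AG had 14.7 peaks per Mb (78 peaks, interval 11.6 to 18.4) and SEP3Δtet-AGΔtet had 26.2 (139 peaks, interval 22.1 to 31.0). At 1500 to 2000 bp the densities were 16.7 and 22.6, so that of SEP3Δtet3M-AG was no lower than in the band before. At 3000 to 5000 bp the densities were 10.7 and 13.4 per Mb. At 5000 to 10000 bp they were 7.40 per Mb for each, with 31 peaks in either list. Over 10000 bp away they were 3.10 (interval 2.04 to 4.51) and 3.90 per Mb (interval 2.70 to 5.45). Up to 1000 bp from a gene, for comparison, they were 20.9 and 32.8 per Mb. Inside genes they were 13.6 and 16.5 per Mb. The lists thus differed most in density just outside genes, less inside them, and had the same density at 5000 to 10000 bp. Distance and gene density went together, since 8.24 of the 8.71 Mb of sequence over 10000 bp away lay in windows with few genes. Of the peaks at that distance, 25 of 27 with SEP3Δtet3M-AG and 30 of 34 with SEP3Δtet-AGΔtet lay in those windows. Within those windows the density of SEP3Δtet3M-AG was 7.80 per Mb at 1000 to 1500 bp (5 peaks), 8.63 at 1500 to 2000 bp (5 peaks), 13.0 at 2000 to 3000 bp (13 peaks) and 3.03 over 10000 bp. That of SEP3Δtet-AGΔtet in the same bands was 15.6 (10 peaks), 5.18 (3 peaks), 9.03 (9 peaks) and 3.64 per Mb.

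**Figure D2:**
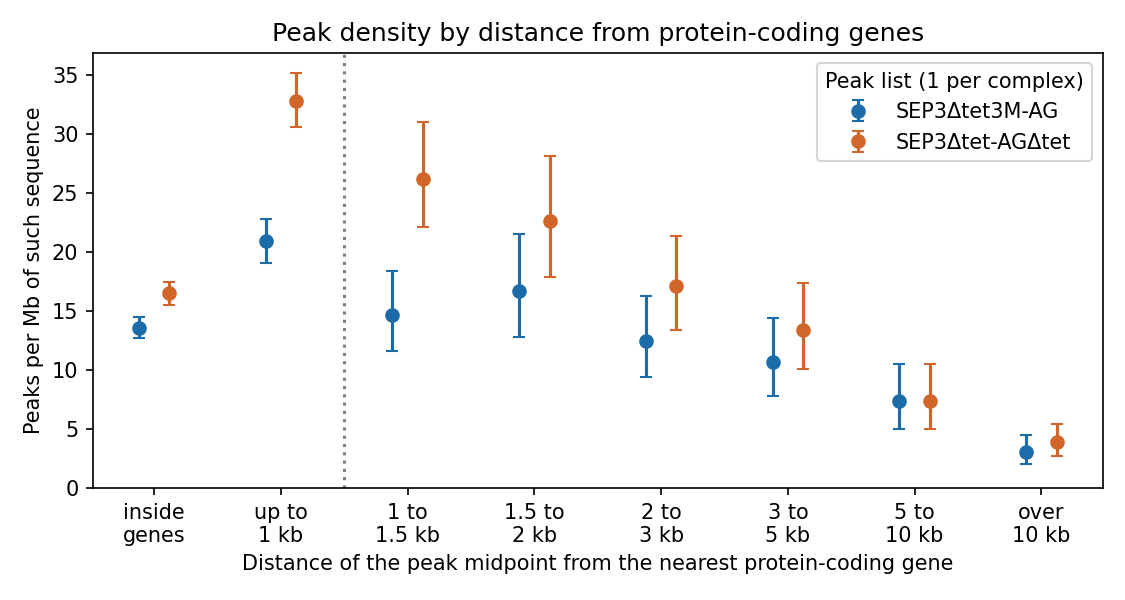
Peaks per Mb of sequence at each distance from the nearest protein-coding gene, for the 2 peak lists (points, with exact 95% Poisson intervals). Left of the dotted line are peaks inside genes or up to 1000 bp away, and right of it the densities are 14.7 and 26.2 per Mb in the first band and 3.10 and 3.90 in the last.

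Along the chromosomes, regions were spread over all 5, from 87 on chromosome 4 to 122 on chromosome 5. Per Mb of sequence far from genes they ranged from 16.0 on chromosome 3 to 19.2 on chromosome 5. The share found with both complexes was 47.5% on chromosome 3 (47 of 99, interval 37.3 to 57.8) and 24.1% on chromosome 4 (21 of 87, interval 15.6 to 34.5), with the other 3 chromosomes between. These ends of the range were picked after the values were seen and were not tested.

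Gene-poor windows were compared next. A low-gene window was a 500 kb window with fewer than 0.5 times its chromosome's median density of coding genes, and 37 of 240 windows qualified. They held 49.1% of the sequence far from genes but 117 of the 526 regions (22.2%, interval 18.8 to 26.04). The density of regions was 7.85 per Mb of far sequence in these windows and 26.5 elsewhere. In low-gene windows the lists had nearly equal numbers of far peaks, 79 with SEP3Δtet3M-AG and 78 with SEP3Δtet-AGΔtet. Elsewhere they had 217 and 338. The longer SEP3Δtet-AGΔtet list was therefore longer, among far peaks, outside the low-gene windows. Peaks that were not far had a similar pattern. In low-gene windows 30 peaks of SEP3Δtet3M-AG and 29 of SEP3Δtet-AGΔtet lay inside genes, against 847 and 1034 elsewhere. Outside genes but up to 1000 bp away the numbers were 24 and 29, against 484 and 769 elsewhere.

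The 3 classes of regions were of similar size in low-gene windows, at 40 for both complexes, 39 for SEP3Δtet3M-AG only and 38 for SEP3Δtet-AGΔtet only. In the other windows they were 143, 71 and 195. As a share of each class, low-gene windows held 21.9% of the regions of both complexes (interval 16.1 to 28.6). They held 35.5% of those of SEP3Δtet3M-AG only (interval 26.6 to 45.2) and 16.3% of those of SEP3Δtet-AGΔtet only (interval 11.8 to 21.7). The last 2 intervals do not overlap, but this contrast was not tested, and regions are not replicates of a complex. How well reads can be placed in low-gene windows was not tested, and neither was background calling by the peak caller.

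**Figure D3:**
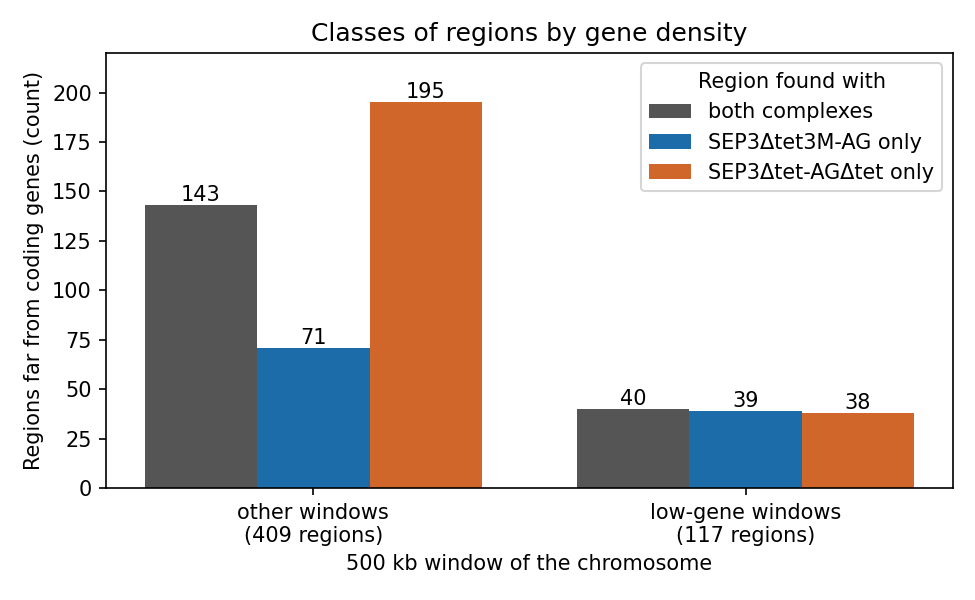
Number of regions found with both complexes, with SEP3Δtet3M-AG only and with SEP3Δtet-AGΔtet only (bars), in low-gene 500 kb windows and in all others. The bars stand at 40, 39 and 38 in low-gene windows and at 143, 71 and 195 elsewhere.

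Sharing between the lists was not used to choose the regions and could be compared with the other peaks. Over whole lists, 67.6% of SEP3Δtet3M-AG peaks and 49.7% of SEP3Δtet-AGΔtet peaks overlapped the other list by 1 bp or more. Of the far peaks of SEP3Δtet-AGΔtet, 184 of 416 were shared (44.2%, interval 39.4 to 49.2), against 947 of its 1861 other peaks (50.9%, interval 48.6 to 53.2). The difference was -6.66 percentage points (Newcombe 95% interval -11.87 to -1.34; two-sided Fisher's exact p = 0.0147, adjusted over the 2 lists p = 0.0294). Of the far peaks of SEP3Δtet3M-AG, 187 of 296 were shared (63.2%, interval 57.4 to 68.7), against 950 of 1385 others (68.6%). That difference of -5.41 points (interval -11.53 to 0.43) missed the threshold (adjusted p = 0.0753, Fisher's exact test). The other peaks lay inside genes or outside them up to 1000 bp away. For SEP3Δtet-AGΔtet, 45.6% of those outside were shared (364 of 798, interval 42.1 to 49.1) and 54.8% of those inside (583 of 1063). The far share of that list was thus close to that just outside genes and below that inside. For SEP3Δtet3M-AG the values were 72.2% outside (367 of 508) and 66.5% inside (583 of 877). These parts were not tested apart.

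Both calls moved with the settings. With a limit of 2000 bp the SEP3Δtet-AGΔtet difference no longer passed (45.4% against 50.1%, Fisher's exact adjusted p = 0.232), and that of SEP3Δtet3M-AG did (56.3% against 68.8%, adjusted p = 0.00349). Outside low-gene windows, 67.7% of the far and 68.8% of the other SEP3Δtet3M-AG peaks were shared (Fisher's exact adjusted p = 0.753). For SEP3Δtet-AGΔtet the difference there was 42.6% against 50.6% (Fisher's exact adjusted p = 0.0152).

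By distance, the shared part of the SEP3Δtet3M-AG peaks was 71.8% at 1000 to 1500 bp (56 of 78, interval 60.5 to 81.4) and 48.9% at 3000 to 5000 bp (22 of 45, interval 33.7 to 64.2). The shared part of the SEP3Δtet-AGΔtet peaks was 38.9% and 37.5% in the same bands. Within each list, the intervals of all bands beyond 1000 bp overlap. Among peaks found in 1 list only, 20.04% of the 544 of SEP3Δtet3M-AG lay far from genes and 20.24% of the 1146 of SEP3Δtet-AGΔtet. The difference of -0.20 points (Newcombe interval -4.18 to 4.0; Fisher's exact p = 0.948) turned with the limit. At 500 bp it was -4.90 points (p = 0.0387, Fisher's exact) and at 2000 bp 3.35 points (p = 0.0406, Fisher's exact), so SEP3Δtet3M-AG had the smaller share at the shorter limit and the larger share at the longer one.

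**Figure D4:**
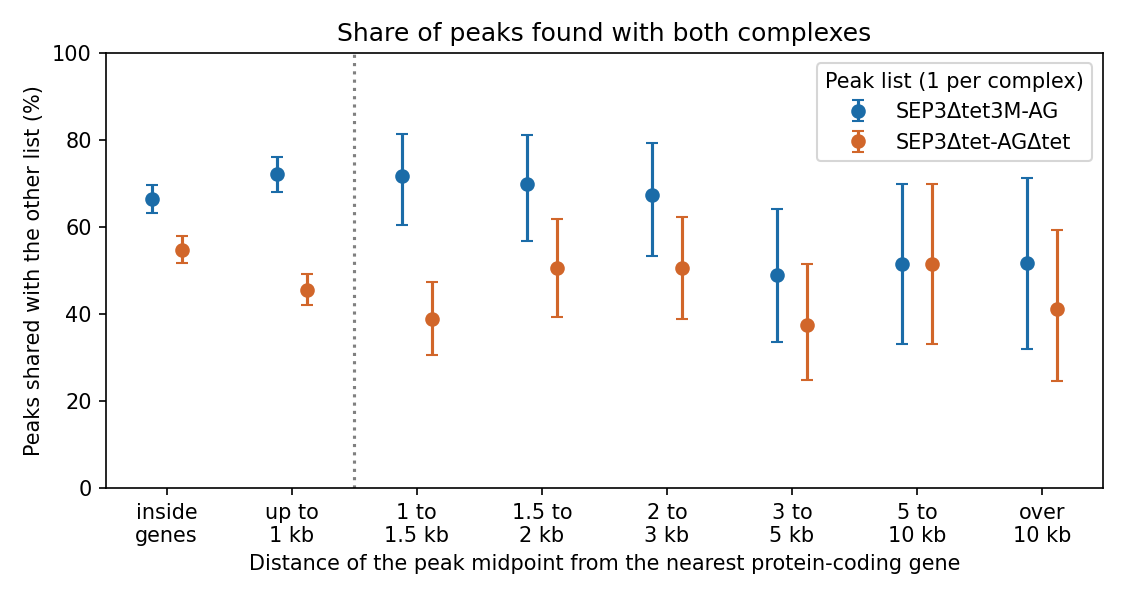
Percent of each list's peaks that overlap a peak of the other list, by distance from the nearest protein-coding gene (points, with exact 95% intervals). For SEP3Δtet3M-AG the value is 71.8% at 1000 to 1500 bp and 48.9% at 3000 to 5000 bp, and for SEP3Δtet-AGΔtet it is 38.9% and 37.5%.

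Where both complexes had a far peak, the peaks were nearly concentric. The 184 overlapping pairs had a median distance of 8 bp between midpoints (quartiles 4 and 17.25 bp), and 149 pairs (81.0%) were within 20 bp. Overlapping pairs inside or near genes had the same median, with 86.0% within 20 bp. The median was 12 bp in low-gene windows (40 pairs) and 8 bp elsewhere (144 pairs). In 6 regions the 2 peaks had identical coordinates, and the first 3 of these along the genome have AT1G31940, NCED3 and AT3G42390 as nearest coding genes. The 3 widest pairs were 387 bp apart near AT1G28640, 336 bp apart near AT3G29152 and 300 bp apart near AT4G08280. The region near AT3G29152 held 2 peaks of SEP3Δtet3M-AG, and the other of these was 9 bp from the same SEP3Δtet-AGΔtet peak. Of the pairs taken as the closest of their region, the widest after 387 and 300 bp was 213 bp apart, near the homeodomain gene HDG10.

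Non-coding genes and pseudogenes were touched by 105 of the 526 regions (19.96%, interval 16.6 to 23.6), meaning that a peak reached into the gene by 1 bp or more. The midpoint lay inside such a gene in 60 regions (11.4%). The share of far sequence where a 400 bp peak would touch one was 40.3%, so the share of regions was below that of positions. No test was made of these shares. Pseudogenes not annotated as transcribed were touched by 49 regions (9.32%, interval 6.97 to 12.1), where 33.7% of far positions would touch one. In low-gene windows the values were 28.2% of 117 regions (interval 20.3 to 37.3) against 48.6% of positions. Elsewhere they were 3.91% of 409 regions (interval 2.25 to 6.28) against 19.2%. How well reads can be placed in pseudogenes was not tested.

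Genes for long non-coding RNAs (lncRNAs) stood the other way round, above the share of positions. They were touched by 28 regions (5.32%, interval 3.57 to 7.60), against 2.32% of far positions, and 33 different lncRNA genes were involved. Outside low-gene windows, where 25 of the 28 lay, the values were 6.11% (interval 3.99 to 8.89) against 3.85%. The loosely defined misc_RNA type was touched by 12 regions (2.28%, interval 1.18 to 3.95), against 1.02%. Outside low-gene windows it was 2.44% (interval 1.18 to 4.45) against 1.59%, which lies inside the interval. Transcribed pseudogenes were at 2.66% (interval 1.46 to 4.43) against 2.97%. No region touched an annotated rRNA, snRNA or snoRNA gene (exact upper limit 0.70% each), and such genes cover under 0.1% of far positions each. Gene strand is not in the table used, and peaks have none, so a peak in an lncRNA gene is not tied to that gene.

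**Figure D5:**
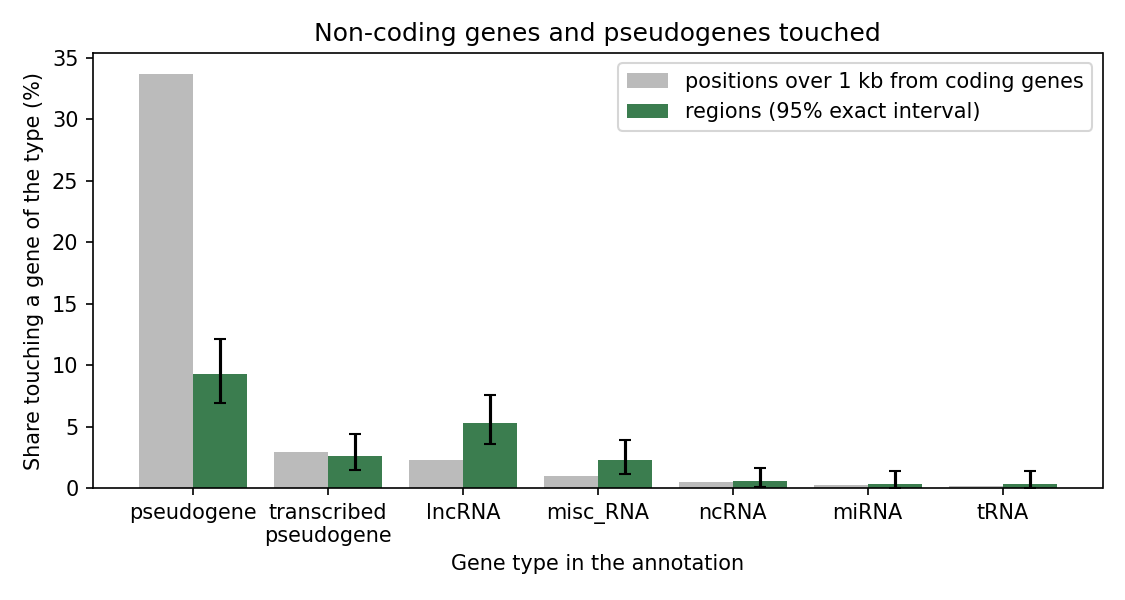
Percent of the 526 regions that touch a gene of each non-coding type (green, with exact 95% intervals) beside the percent of positions over 1000 bp from coding genes where a 400 bp peak would touch one (grey). Pseudogenes stand at 9.32% against 33.7%, and lncRNA genes at 5.32% against 2.32%.

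By class of region, 34 of the 110 regions of SEP3Δtet3M-AG only touched a non-coding gene or pseudogene (30.9%, interval 22.5 to 40.4). The numbers were 31 of 183 for both complexes (16.9%, interval 11.8 to 23.2) and 40 of 233 for SEP3Δtet-AGΔtet only (17.2%, interval 12.6 to 22.6). Outside low-gene windows the shares were 23.9%, 13.3% and 14.4%. With transcribed pseudogenes included, 25 regions of SEP3Δtet3M-AG only touched a pseudogene (22.7%, interval 15.3 to 31.7), against 17 (9.29%) and 20 (8.58%). Regions touching a gene for an RNA were 10 (9.09%), 14 (7.65%) and 22 (9.44%). The class differences were chosen after the values were seen and were not tested.

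Among named examples, a region of both complexes touched the lncRNA genes AT1G06313 and AT1G06317 (chromosome 1, 10667425 to 10667825). Its midpoints were 1 bp apart, and at least 1 of them lay inside AT1G06313. Other regions of both complexes had at least 1 midpoint inside AT2G08045 (midpoints 4 bp apart) and inside AT4G09415 (3 bp apart). AT1G06483 and AT5G07835 were touched with no midpoint inside. Of the misc_RNA genes, AT3G03315 (1 bp apart) and AT3G00290 (9 bp apart) had at least 1 midpoint of a region of both complexes inside.

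Pseudogenes touched by the regions with the most closely matched peaks of both complexes were AT4G09565 (2 bp apart), AT1G45140 (3 bp), AT2G06140 (4 bp), AT3G29820 (5 bp) and AT3G43526 (7 bp). The last 3 lie in low-gene windows. Of the transcribed pseudogenes, AT5G34832, AT1G56490, AT1G35740 and AT1G19560 were touched by both complexes, 7 to 30 bp apart. The 3 genes of the ncRNA type were AT1G34418 with both complexes and AT1G43765 and AT4G04315 with SEP3Δtet-AGΔtet only. The tRNA genes AT1G04320 (SEP3Δtet-AGΔtet only) and AT5G09755 (SEP3Δtet3M-AG only) complete the list.

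MicroRNA genes stood near 15 regions. MicroRNAs are short RNAs that direct the silencing of matching transcripts, and several plant families control the timing and form of flowers and leaves. A microRNA gene was touched by 2 regions. MIR403, whose product targets an ARGONAUTE transcript, was touched with both complexes (chromosome 2, 19415130 to 19415529 with SEP3Δtet3M-AG), 8 bp apart. MIR319b, of a family that targets TCP growth regulators, was touched with SEP3Δtet-AGΔtet only (chromosome 5, 16660575 to 16660974). Within 3000 bp of a microRNA gene lay 2.85% of regions (interval 1.60 to 4.66), beside 1.89% of far positions, a share inside the interval.

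The microRNA genes below were chosen after their values were seen. The miR156 and miR157 family, which represses SPL genes and so delays the passage to the flowering phase, was near 4 regions. Both complexes had a peak 237 and 249 bp from MIR156a (chromosome 2, 10676611 to 10677010 with SEP3Δtet3M-AG), 1489 and 1495 bp from MIR156e, and 1775 and 1750 bp from MIR157c, the first value of each pair being that of SEP3Δtet3M-AG. MIR156c had a peak of SEP3Δtet3M-AG only, 593 bp away.

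Both complexes also had peaks near MIR168a (710 and 718 bp), whose product targets AGO1, near MIR390a (858 and 863 bp), which starts the making of small RNAs against auxin response factors, and near MIR169j (866 and 861 bp). SEP3Δtet-AGΔtet alone had peaks 270 bp from MIR166g, of a family acting in leaf polarity, and 873 bp from MIR319c. MIR169b, MIR3932a and MIR405d were likewise near a peak of that list alone, and MIR863 near one of SEP3Δtet3M-AG alone. The MIR169j region has AFB2 as its nearest coding gene, at 2632 bp, and thus lies closer to the microRNA gene.

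For all regions together, the nearest gene of any type was protein-coding in 258, a pseudogene in 130, a transcribed pseudogene in 22, an lncRNA gene in 74 and a microRNA gene in 11. The median distance to the nearest gene of any type was 1148.5 bp. In 325 regions the midpoint was over 1000 bp from genes of every type.

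Coding genes were named by 3 gene lists. Of 36 MADS-box genes matched, 2 were the nearest coding gene of a region (5.56%), of 23 flowering-time genes 2 (8.70%), and of 51 flower and meristem genes 5 (9.80%). Of all 27444 coding genes, 493 were (1.80%). Since only genes beside long gaps can have such a region, the gaps between coding genes give a closer comparison. Of 6538 gaps over 2000 bp, 480 held a region (7.34%). Gaps bordered by a MADS-box gene held one in 4 of 26 cases (15.4%), by a flowering-time gene in 6 of 22 (27.3%) and by a flower and meristem gene in 12 of 55 (21.8%). The median length of these gaps was 3.67, 4.21 and 4.90 kb, against 3.74 kb for all. No test was made, since the genes were listed with earlier results of these data known.

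Among the MADS-box genes of the list, AG itself had a far region of both complexes, 1561 bp from the gene. It lay on chromosome 4, at 10381096 to 10381495 with SEP3Δtet3M-AG and 10381071 to 10381470 with SEP3Δtet-AGΔtet. The midpoints were 25 bp apart in the gap of 4439 bp between AT4G18950 and AG. AGL44, also called ANR1, a regulator of root growth under nitrate, had the other one, 16579 bp away and 3 bp apart (chromosome 2, 6001777 to 6002176 with SEP3Δtet3M-AG). In a further pair of gaps the MADS-box gene was the farther neighbour. Farther neighbours, here and for the other lists, were added to the naming rule after their values were seen. SOC1, listed as AGL20 and a promoter of flowering, lay 1994 bp from a region of both complexes whose nearest gene was AT2G45670 at 1541 bp. SEP3 lay 2747 bp from a region of SEP3Δtet-AGΔtet only, with AT1G24265 at 1521 bp.

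Of the flowering-time genes, TOE3, an AP2-family repressor of flowering, had a region of both complexes 1375 bp away and 8 bp apart (chromosome 5, 26805455 to 26805854 with SEP3Δtet3M-AG). It touched the lncRNA genes AT5G09825 and AT5G09835. TEM1, a repressor of FT, had a region of SEP3Δtet-AGΔtet only, 2718 bp away. As farther neighbours, SMZ, another AP2-family repressor, bordered 2 regions in the gap to TON1A. One of these was of both complexes, 2686 bp from SMZ, and the other of SEP3Δtet-AGΔtet only, 3934 bp from it. AP2, a floral organ identity gene, lay 4783 bp from a region of both complexes with LEJ2 as nearest gene. FD, the bZIP partner of FT, lay 1849 bp from a region of SEP3Δtet-AGΔtet only, and TEM2, listed as RAV2, lay 2501 bp from another.

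Of the flower and meristem genes, ETT, an auxin response factor of the carpel, had a region of both complexes 2471 bp away (chromosome 2, 14331250 to 14331649 with SEP3Δtet3M-AG), 5 bp apart. SUP, a zinc finger gene that limits the number of stamens, had one 1591 bp away, 7 bp apart (chromosome 3, 8244764 to 8245163 with SEP3Δtet3M-AG). SEP3Δtet-AGΔtet alone had regions 3030 bp from DAD1, an enzyme of jasmonate synthesis, 4698 bp from SPT, a carpel regulator, and 1230 bp from KNU, which ends floral meristem activity.

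As farther neighbours of regions of both complexes, HEC2 lay 3447 bp, ANT, an organ growth regulator, 8848 bp, GNC 10623 bp and ARF6 13215 bp away. RBE, a petal regulator, at 1215 bp and HEC3 at 3683 bp bordered regions with a far peak of SEP3Δtet3M-AG only. At RBE, a SEP3Δtet-AGΔtet peak within 1000 bp of a gene overlapped that region. GNL, listed as CGA1, bordered one of SEP3Δtet-AGΔtet only, at 2835 bp.

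SPT also stood at the edge of the densest group. On chromosome 4 (17319695 to 17409585) lay 8 regions whose outer midpoints were 89.5 kb apart, 3 of both complexes, 1 of SEP3Δtet3M-AG only and 4 of SEP3Δtet-AGΔtet only, among 21 coding genes. Of these, 3 lay between HB40 and AT4G36750, 1 near the homeodomain gene BLH2 and 1 between LEJ2 and AP2. The last 3 lay in the 9.63 kb gap between AT4G36925 and SPT, the central one of both complexes (17408759 to 17409158 with SEP3Δtet3M-AG), flanked by a peak of SEP3Δtet-AGΔtet on either side. The second group held 5 regions on chromosome 5, with outer midpoints 51.3 kb apart, near MAM1, IMS2, MYB37, F8H and AT5G22930. MAM1 encodes an enzyme of glucosinolate synthesis. The third held 4 regions on chromosome 4 (2769101 to 2789454) beside AT4G05497 and AT4G05475 and had no region of both complexes. Other groups also held 4 regions within 100 kb, such as a group on chromosome 2 (5425332 to 5462839) that included regions of both complexes.

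Occupied gaps were mostly single. Of the 480, 440 held 1 region, 34 held 2 and 6 held 3. The share of gaps with a region was 1.47% at 2000 to 3000 bp, 18.1% at 10000 to 20000 bp and 31.0% over 20000 bp. The rule leaves a longer gap more sequence where a midpoint can qualify, so this rise does not show a preference for long gaps. RAP2.9, an AP2/ERF-type gene, AT4G05497 and AT2G13150 were each the nearest coding gene of 3 regions. The regions at RAP2.9 lay 3102, 9751 and 24660 bp away in a gap of 90.2 kb, none of both complexes, and each touched a pseudogene. Those at AT2G13150 lay 1284, 10941 and 24159 bp away in a gap of 70.0 kb, and the 2 farther ones were of both complexes.

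The 10 regions farthest from coding genes all lay in low-gene windows. The farthest was found with both complexes, 12 bp apart, 164174 bp from AT5G32440 in a gap of 440078 bp, and it touched the pseudogene AT5G32254 (chromosome 5, 11912332 to 11912731 with SEP3Δtet3M-AG). The other 9 lay 32140 to 47996 bp from a coding gene, and none was of both complexes. SEP3Δtet-AGΔtet alone had 7 of them, near AT1G41820, AT3G42310, PHL1, AT3G32030, AT5G34870, AT4G06643 and AT4G08097. SEP3Δtet3M-AG alone had 2, near AT1G42190 and AT3G32030. Both lists thus had a peak in the same gap beside AT3G32030, at 36143 and 32817 bp, without overlap. Of the 10, 6 touched a pseudogene and 1 the lncRNA gene AT4G05335. Among all 47 regions over 10000 bp away, 14 were of both complexes.

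Other nearest coding genes included well-studied hormone genes, chosen for naming after the regions were seen and given as a description. NCED3, a key enzyme of abscisic acid synthesis, had a region of both complexes on either side. The peaks lay 2036 bp away with midpoints 6 bp apart, and 3063 bp away with identical coordinates (chromosome 3, 4836879 to 4837278). Both complexes also had regions near ABF4 (1079 bp), which acts in the abscisic acid response. SEP3Δtet-AGΔtet alone had regions near NCED2 (3873 bp), near CYP707A1 (3464 bp) and CYP707A3 (3784 bp), which break the hormone down, and near ABF1 (1011 bp).

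In auxin action, the response repressor IAA7 (4209 bp, midpoints 2 bp apart) and the receptor AFB2 (2632 bp) had regions of both complexes. The transport gene PIN3 (1441 bp) and ARF9 (1838 bp) had regions of SEP3Δtet-AGΔtet only. GA20OX3 (1595 bp), of gibberellin synthesis, was near a region of both, and GA2OX8 (1046 bp), of its inactivation, near one of SEP3Δtet-AGΔtet only. In ethylene synthesis ACS9 (1085 bp) had a region of both. The receptor ERS2 (1422 bp), the signal transducer EIN2 (1142 bp) and ERF1 (1059 bp) had regions of SEP3Δtet-AGΔtet only. The cytokinin genes chosen for naming, which are not all of those near a region, split 3 ways. LOG7 (1304 bp) was near a region of both and LOG1 (2490 bp) near one of SEP3Δtet-AGΔtet only. IPT3 (1215 bp) and CKX5 (3246 bp) were near ones of SEP3Δtet3M-AG only.

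Among genes of plant form, EPF2 (1038 bp), a signal of stomatal patterning, KAN2 (1749 bp), a gene of organ polarity, and ATC (1483 bp), a relative of TFL1, had regions of both complexes. MYB106 (1135 bp), a regulator of epidermal cells, had one of SEP3Δtet3M-AG only. AGO10 (1920 bp), LOB (1222 bp), MYB36 (1697 bp) and BPEp (2054 bp), the last a regulator of petal size, had one of SEP3Δtet-AGΔtet only. The salt tolerance kinase SOS2 (7573 bp) and the wax enzyme KCS6 (1168 bp) had regions of both, 5 and 1 bp apart. The phosphate transporter gene PHT1;4 had a region of both at 1740 bp and one of SEP3Δtet-AGΔtet only at 2619 bp. PHO2 (1145 bp), of phosphate balance, and STOP1 (1307 bp), of tolerance to acid soil, had regions of SEP3Δtet-AGΔtet only.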

How the data were processed

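Per the submitters' processing notes, Bowtie2, SAMtools and MACS2 were used. The sources used here state no version, setting, build or pooling. The authors deposited peak positions only, with no score, so only positions were used. Genes came from the TAIR10.1 RefSeq table, with 27444 protein-coding and 10455 other genes on the chromosomes. It serves for names, neighbours and distances, and gene coordinates are not printed. Since the build of the peaks is not named, the fit was checked by shifting peaks: 33.0% of midpoints lay outside but within 1000 bp of a coding gene as deposited, and 20.6 to 22.4% after shifts of 2000 to 20000 bp either way. The share of far midpoints did not move with the shifts in this way, at 18.0% as deposited and 17.8 to 19.4% shifted. Printed coordinates count from 1. Far sequence is every position that meets the rule for midpoints, up to the last annotated gene or peak of a chromosome.

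Distances, overlaps and regions were computed in Python 3.11.15 with pandas 2.3.3, and two-sided Fisher's exact tests with scipy 1.17.1, adjusted over the 2 lists by Benjamini-Hochberg. Alternatives changed the limit, the overlap, the gene types and the windows. The steps were tested on simulated intervals. The members and lists were chosen with earlier results of these data known. Named were all regions touching a microRNA gene, the 10 farthest, the 3 on either side of the limit, the 3 closest and 3 widest pairs, the 3 densest groups in 100 kb, regions whose nearest coding gene is in a list, and per non-coding type all genes touched or, above 5, those of the 5 closest pairs. Of the list symbols, 2 found no single match. Base composition and CArG boxes were not analysed here.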

Additional observations from a re-analysis of the deposited data

How the results depend on the processing

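Of 36 alternatives run, 20 kept a test on its side of the threshold, a count within 1.5 times the reported one or a share within its reported interval. The number of regions was 767 with a limit of 500 bp, 274 of them found with both complexes, which is within 1.5 times. It fell to 265 with a limit of 2000 bp and to 326 against genes of every type, and the number found with both complexes to 88 and 119. The share of far SEP3Δtet3M-AG peaks that was shared passed the test at 60.8% with 200 bp of overlap, 60.5% with midpoints within 100 bp and 56.3% with a limit of 2000 bp. That of SEP3Δtet-AGΔtet lost its call with that limit, at 45.4%. The difference in far peaks found in 1 list only, with settings chosen after seeing the data, was -4.90 points at 500 bp and 3.35 at 2000 bp. Regions touching a non-coding gene or pseudogene made up 11.4% by midpoint, 16.4% with a limit of 500 bp and 24.9% with 2000 bp. Those in low-gene windows made up 17.2% and 37.4%. The median distance was 1148.5 bp to genes of every type. The cause of the changes in the tests was not tested. No paired analysis was possible because each complex has 1 list. The planned motif alternative was not run for want of sequence. Depth is unknown, so a peak missing from a list need not mean that the complex does not bind there.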
